A study of Mus musculus with 3 samples.

Results

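The miR-200 family is a group of 5 microRNAs that is abundant in epithelial cells, among them the cholangiocytes that line the bile ducts of the liver. Its 3p arms, the products of the 3′ side of each hairpin, were examined in small RNA libraries from mouse liver. They are mmu-miR-200b-3p, mmu-miR-200a-3p, mmu-miR-429-3p, mmu-miR-200c-3p and mmu-miR-141-3p (below without the mouse prefix), chosen by name, and are 5 of the 1908 mature microRNAs listed in the count files. All 5 had reads in each of the 3 libraries.

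The livers came from male C57BL/6J mice of 8 to 10 weeks, an inbred strain, in groups of 6 mice. The Sham group had a laparotomy with no vascular occlusion and was sampled after 90 min. In the warm ischemia (WI) group, the portal triad to the left and median lobes, about 70% of the liver, was clamped for 90 min and the liver was then sampled. In the ischemia-reperfusion (IR) group, the same clamping was followed by 120 min of restored flow. Each group was sequenced as 1 library, and whether RNA of several mice was pooled in it is not given in the sources used here. There was therefore no replicate check of any difference, every p-value compares 2 libraries and not 2 conditions, and intervals cover counting error only. Because IR livers were taken later after laparotomy than the others, effects of reperfusion and of elapsed time cannot be told apart.

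MicroRNAs repress messenger RNAs mainly through bases 2 to 8, the seed. The miR-200 family is best known for repressing Zeb1 and Zeb2, which encode transcription factors that switch off epithelial genes such as E-cadherin, and these factors in turn repress the miR-200 genes. The family thus helps to hold cells in the epithelial state. The hepatocytes that make up most of the liver express little of it, whereas the bile ducts are one of its sources. In whole liver, fewer cells of a type and less RNA per cell cannot be told apart.

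The mature sequences (RefSeq, GRCm38.p6, 5′ to 3′) show how the members relate, with the seed in capitals:

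miR-200b-3p: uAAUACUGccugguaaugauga
miR-429-3p: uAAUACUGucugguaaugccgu
miR-200c-3p: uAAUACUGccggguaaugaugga
miR-200a-3p: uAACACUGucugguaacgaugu
miR-141-3p: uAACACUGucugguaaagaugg

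There are 2 seeds, which differ at the third seed base, AAUACUG in miR-200b, miR-429 and miR-200c and AACACUG in miR-200a and miR-141. Of the 1603 listed microRNAs with a RefSeq mature sequence, no others carried either seed. The seed groups cross the genomic clusters, since each cluster encodes both seeds. Counted from 1 at the 5′ end of miR-200b-3p, miR-200c-3p differs from it over the first 22 bases by U11G and A22G. Likewise, miR-141-3p differs from miR-200a-3p by C17A and U22G. Each of these pairs spans the 2 clusters and has a single difference within the first 20 bases, so a read that is short at its 3′ end is told apart by 1 base. How reads carrying a mismatch were divided within these pairs was not tested.

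The first cluster lies on chromosome 4 of the mm9 (NCBIM37) assembly, where 3 hairpins on the minus strand span 1846 bases. Mir200b (155429790 to 155429859) and Mir200a (155429005 to 155429094) lie in an intron of the non-coding transcript Gm13648, and Mir429 (155428014 to 155428096) lies in its exon. All 3 also lie in an intron of Ttll10, a tubulin ligase-like gene on the same strand. The second cluster lies on chromosome 6, where 2 hairpins span 477 bases in an intron of the non-coding transcript Gm15884, also on the minus strand. They are Mir200c (124668340 to 124668408) and Mir141 (124667932 to 124668003). The genome sequence at these 5 positions was identical to the RefSeq hairpins.

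The libraries held 3784539 to 5064014 microRNA reads. Levels are normalised read counts in CPM (counts per 1e6 microRNA reads), with library sizes adjusted by TMM, the trimmed mean of M-values. The limit that a count of 0 allows, 3 reads, was 0.617 to 0.785 CPM. A microRNA counted as changed, or called, where its fold exceeded 1.5 and its two-sided Fisher's exact p was under 0.01, which are the criteria of the study.

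The family was a minor component of these libraries. Its 3p arms took 1923 of the microRNA reads in Sham, 2312 after WI and 1879 after IR. These were 0.05002% (95% exact binomial interval 0.0478 to 0.0523), 0.0457% (0.0438 to 0.0476) and 0.0496% (0.0474 to 0.0519) of the reads, and the intervals of Sham and WI did not overlap. After TMM scaling, the summed level was 486 CPM in Sham (95% Poisson interval 464 to 508), 475 after WI (456 to 495) and 491 after IR (469 to 514). The intervals of these 3 scaled levels overlapped.

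MiR-200b-3p was the most abundant member, with 999 reads in Sham, 1098 after WI and 984 after IR. Its level was 252 CPM in Sham, 226 after WI and 257 after IR, and it ranked 90 to 93 among all microRNAs. MiR-429-3p, which shares its seed and cluster, had 358, 442 and 345 reads, or 90.4, 90.9 and 90.2 CPM. The 3 levels of miR-429-3p differed by under 1 CPM.

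The members with the AACACUG seed followed. MiR-200a-3p had 293 reads in Sham, 408 after WI and 260 after IR, which were 74.0, 83.9 and 68.0 CPM, highest in WI. MiR-141-3p, from the other cluster, had 258, 346 and 258 reads, which were 65.2, 71.1 and 67.5 CPM. MiR-200c-3p, although encoded beside miR-141, was scarce, with 15 reads in Sham, 18 after WI and 32 after IR. Its level was 3.79 CPM in Sham (2.12 to 6.25), 3.70 after WI (2.19 to 5.85) and 8.37 after IR (5.72 to 11.8).

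The order was the same in every library, miR-200b-3p, miR-429-3p, miR-200a-3p, miR-141-3p and miR-200c-3p. The mature forms are 22 or 23 bases long, so levels were compared without a correction for length, and unequal adapter ligation was not corrected. Some neighbours were not separated by counting error. The ratio of miR-429-3p to miR-200a-3p was 1.22 in Sham (95% interval 1.04 to 1.43), 1.08 after WI (0.945 to 1.24) and 1.33 after IR (1.13 to 1.56). The ratio of miR-200a-3p to miR-141-3p was 1.14 (0.957 to 1.35), 1.18 (1.02 to 1.36) and 1.01 (0.845 to 1.20), so this pair was separated in WI only.

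As shares of the family's 3p reads, which need no scaling, miR-200b-3p held 52.0% in Sham (95% exact binomial interval 49.7 to 54.2), 47.5% after WI (45.4 to 49.6) and 52.4% after IR (50.1 to 54.6). Its share was lowest after WI, where the interval did not overlap that of either other library. MiR-200a-3p held 15.2% (13.7 to 16.9), 17.6% (16.1 to 19.3) and 13.8% (12.3 to 15.5), highest after WI, with intervals that overlapped between Sham and each of the others but not between WI and IR. MiR-429-3p ran from 18.4 to 19.1% and miR-141-3p from 13.4 to 14.97%, each with overlapping intervals, and miR-200c-3p held 0.780%, 0.779% and 1.70%.

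**Figure D1:**
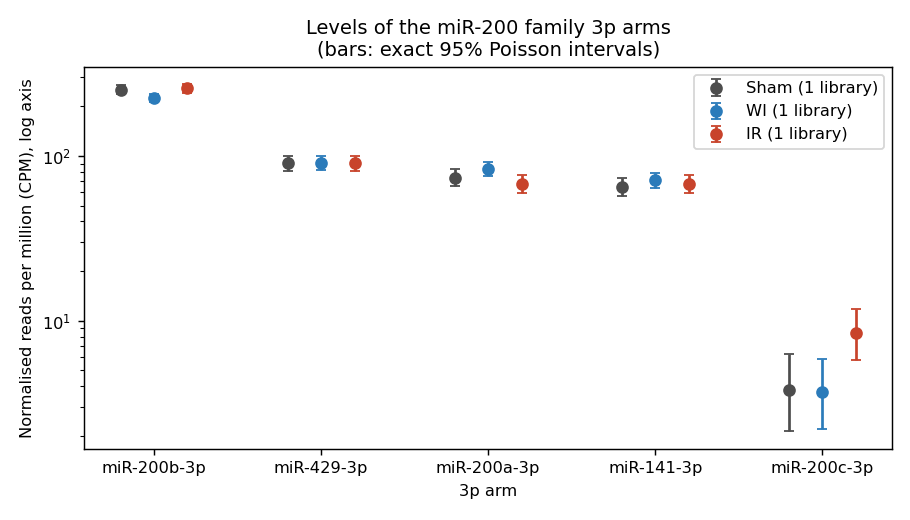
Normalised level of each 3p arm (x axis) in CPM (y axis, logarithmic) in the Sham, WI and IR libraries, 1 library each. Points are levels and bars are exact 95% Poisson intervals, and miR-200c-3p lies at 3.79, 3.70 and 8.37 CPM, far under the 65.2 to 257 CPM of the other members.

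Ischemia alone was examined first. Of the 5 members, 0 were called in WI versus Sham by the fold and Fisher criteria, beside 1.92% of 782 tested microRNAs (1.41% higher and 0.512% lower). Without the fold requirement, 0 of the 5 had a Fisher's exact p under 0.01 with TMM, beside 12.3% of tested microRNAs. The exact test of edgeR with assumed variation called 0 members too. With TMM, the lowest unadjusted Fisher's exact p among the members was that of miR-200b-3p. That microRNA had a log2 fold change of -0.16 (SE 0.063, Fisher's exact p = 0.0116). The p of miR-200b-3p depended on the scaling, since library totals gave a log2 fold change of -0.26 (Fisher's exact p = 3.70e-05), and it was -0.24 without the 10 most abundant microRNAs (Fisher's exact p = 0.000126), -0.23 after thinning (Fisher's exact p = 0.00113) and -0.21 with DESeq2 size factors (Fisher's exact p = 0.00122). With genome-aligned totals it was -0.0046 (Fisher's exact p = 0.948), and miR-200a-3p was then the member under 0.01, at 0.34 (Fisher's exact p = 0.00246). The median log2 fold change of the members was 0.0071, and that of all tested microRNAs was 0.046.

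The other members differed little between WI and Sham. MiR-200a-3p had a log2 fold change of 0.18 (SE 0.11, Fisher's exact p = 0.103), and miR-141-3p had one of 0.13 (SE 0.12, Fisher's exact p = 0.306). MiR-429-3p had a log2 fold change of 0.0071 (SE 0.10). For these members and miR-200b-3p, 4 of the 5, the 95% counting interval of the fold change lay wholly within 1.5-fold. For miR-200c-3p the interval ran from 0.465 to 2.08-fold, so changes within those bounds were not detectable at this depth.

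Reperfusion was then compared with ischemia. MiR-200c-3p was the member called in IR versus WI, 1 of 5 beside 9.25% of 789 tested microRNAs (6.21% higher and 3.04% lower). It rose from 18 reads in WI to 32 after IR, a log2 fold change of 1.16 (SE 0.43, Fisher's exact p = 0.00622, Benjamini-Hochberg adjusted p = 0.0343 over all tested microRNAs). The fold change was 2.23, with a 95% counting interval of 1.23 to 4.28. The call rested on few reads. It was lost after thinning to equal depth (log2 fold change 0.85, Fisher's exact p = 0.0461), which was a single random draw of reads. In that draw the log2 fold change of miR-200c-3p in WI versus Sham moved from -0.033 to 0.25, so another draw could differ. The call was also lost with totals of genome-aligned reads (0.84, Fisher's exact p = 0.0474). The same held when a coefficient of variation of 0.1 between libraries was assumed in the exact test of edgeR (p = 0.0175).

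MiR-200b-3p and miR-200a-3p differed between IR and WI in opposite directions with TMM, beyond counting error but under the fold threshold, whereas with genome-aligned totals both were lower in IR (-0.13 and -0.63) and miR-200a-3p passed both criteria. MiR-200b-3p had a log2 fold change of 0.19 (SE 0.063, Fisher's exact p = 0.00287), a fold of 1.14. MiR-200a-3p had a log2 fold change of -0.30 (SE 0.11, Fisher's exact p = 0.00803), and its CPM in WI exceeded that in IR by a factor of 1.23. A Fisher's exact p under 0.01 without a fold requirement was thus reached with TMM by 3 of 5 members, and by 18.9% of all tested microRNAs. With DESeq2 size factors, library totals or without the 10 most abundant, 2 of 5 reached it, since the p of miR-200a-3p was then 0.0139 to 0.0461 in Fisher's exact test, and after thinning 1 of 5 did, miR-200b-3p. With genome-aligned totals the 3 were miR-200a-3p, miR-429-3p and miR-141-3p. MiR-429-3p and miR-141-3p had log2 fold changes of -0.010 (SE 0.10) and -0.076 (SE 0.12) with TMM, and of -0.33 (Fisher's exact p = 0.00132) and -0.40 (Fisher's exact p = 0.000724) with genome-aligned totals, where the median of all tested microRNAs was -0.33.

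In IR versus Sham, 0 of 5 members met both the fold and the Fisher criterion, beside 7.11% of 774 tested microRNAs (5.68% higher and 1.42% lower). A Fisher's exact p under 0.01 alone was reached by 0 of 5 with TMM, the other 4 scalings and thinning, beside 16% of tested microRNAs with TMM. The member with the lowest p with TMM was miR-200c-3p. The exact test of edgeR with assumed variation called 0 as well. MiR-200c-3p had 15 reads in Sham and 32 after IR, a fold of 2.18 (95% counting interval 1.16 to 4.39), and its p of 0.0123 in Fisher's exact test missed the threshold. The log2 fold changes of the other members ran from -0.12 (miR-200a-3p) to 0.050 (miR-141-3p), and their 95% intervals lay within 1.5-fold. The median absolute log2 fold change was 0.050 over the 5 members and 0.31 over the 449 microRNAs with at least 10 reads in all libraries together. In WI versus Sham these medians were 0.13 and 0.24, and in IR versus WI they were 0.19 and 0.32. The 449 were not matched to the members in abundance, and counting error is larger at low counts. Every member but miR-200c-3p had at least 258 reads in each library. The 3 comparisons share libraries, so their values are not independent.

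**Figure D2:**
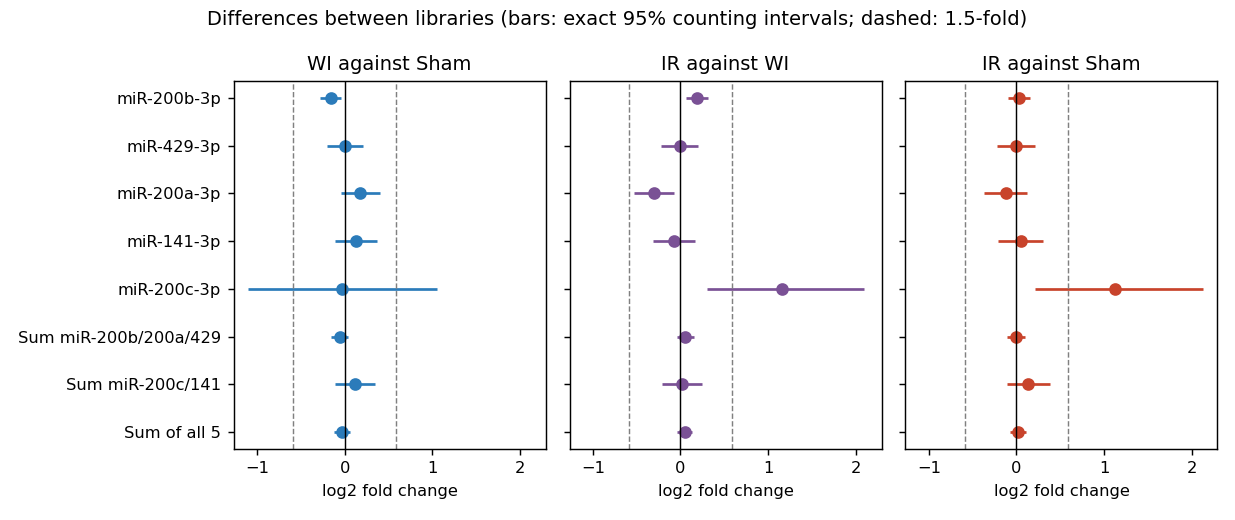
Log2 fold change (x axis) of each 3p arm, of the 2 cluster sums and of the family sum in WI versus Sham, IR versus WI and IR versus Sham. Points are estimates, bars are exact 95% counting intervals and dashed lines mark 1.5-fold, and miR-200c-3p alone has an interval that crosses a dashed line.

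**Figure D3:**
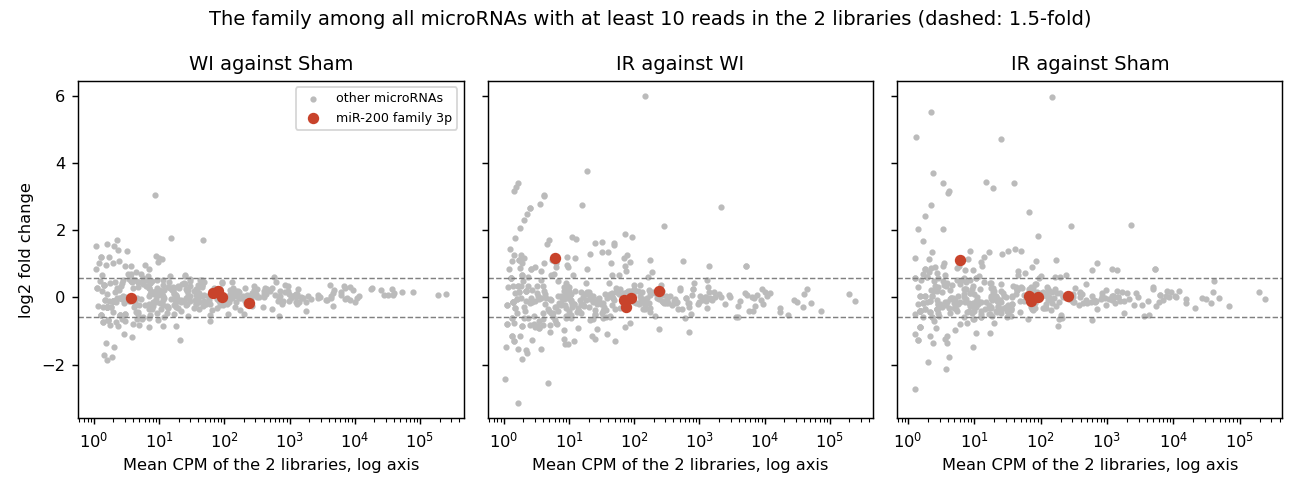
Log2 fold change (y axis) against the mean CPM of the 2 libraries compared (x axis, logarithmic) for microRNAs with at least 10 reads in those libraries (grey) and the 5 family members (red), with dashed lines at 1.5-fold. In the comparisons with IR, miR-200c-3p lies above the upper line, at 1.16 and 1.12, and the other members lie between the lines.

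The clusters were compared next, because members of a cluster can be cut from 1 primary transcript. The chromosome 4 cluster summed to 417 CPM in Sham (397 to 437), 400 after WI (383 to 419) and 416 after IR (395 to 436). The chromosome 6 cluster summed to 68.9 CPM (61.0 to 77.6), 74.8 (67.3 to 82.9) and 75.8 (67.4 to 85.1). Within each cluster the intervals of the 3 libraries overlapped.

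The balance between the clusters does not depend on the scaling, because both are read in the same library. The chromosome 6 cluster gave 14.2% of the family's 3p reads in Sham (95% exact binomial interval 12.7 to 15.8), 15.7% after WI (14.3 to 17.3) and 15.4% after IR (13.8 to 17.1). The chromosome 4 cluster therefore had 6.04, 5.35 and 5.48 reads for each read of the chromosome 6 cluster. The log2 of this ratio changed by -0.18 in WI versus Sham (95% interval -0.42 to 0.070), by 0.034 in IR versus WI (-0.21 to 0.28) and by -0.14 in IR versus Sham (-0.40 to 0.12). A shift of the balance between the clusters was not detectable at this depth, since each interval includes 0. MiR-200b-3p and miR-141-3p held most reads of their clusters. Without miR-141-3p, the chromosome 6 cluster is miR-200c-3p alone, and the log2 ratio changed by -1.12 in IR versus WI and by -1.15 in IR versus Sham. With members weighted equally, as the mean of log2 CPM, these changes were -0.58 and -0.62.

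Ratios within a cluster were examined in the same way. In the chromosome 4 cluster, miR-200b-3p had 3.41 reads per read of miR-200a-3p in Sham (2.99 to 3.90), 2.69 after WI (2.40 to 3.02) and 3.78 after IR (3.30 to 4.36). The interval in WI overlapped narrowly with that in Sham and not with that in IR. The log2 ratio changed by -0.34 in WI versus Sham (95% interval -0.59 to -0.092) and by 0.49 in IR versus WI (0.24 to 0.75), whereas IR versus Sham gave 0.15 (-0.12 to 0.42). The ratio of miR-200b-3p to miR-429-3p was 2.79 in Sham, 2.48 after WI and 2.85 after IR, with overlapping intervals.

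In the chromosome 6 cluster, miR-141-3p had 17.2 reads per read of miR-200c-3p in Sham (10.2 to 31.2), 19.2 after WI (12.0 to 32.8) and 8.06 after IR (5.57 to 12.0). MiR-200c-3p thus made up 5.49% of the cluster's reads in Sham (3.11 to 8.90), 4.95% after WI (2.96 to 7.70) and 11.03% after IR (7.67 to 15.2). The log2 ratio of miR-141-3p to miR-200c-3p changed by -1.25 in IR versus WI (95% interval -2.12 to -0.39) and by -1.09 in IR versus Sham (-2.01 to -0.17). This ratio is free of scaling. Reads of miR-200c-3p were also few beside those of miR-200b-3p, from which it differs by U11G and A22G, at 1.502% of them in Sham, 1.64% after WI and 3.25% after IR.

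Since the seed sets which messenger RNAs can be bound, the reads were also summed by seed. The AACACUG seed (miR-200a and miR-141) had 139 CPM in Sham, 155 after WI and 135 after IR, and the AAUACUG seed (miR-200b, miR-429 and miR-200c) had 346, 320 and 356 CPM. The AACACUG seed took 28.7% of the family's reads in Sham (95% exact binomial interval 26.6 to 30.7), 32.6% after WI (30.7 to 34.6) and 27.6% after IR (25.6 to 29.6). The share was highest in WI, where its interval overlapped narrowly with that of Sham and not with that of IR. The log2 ratio of AAUACUG to AACACUG reads changed by -0.27 in WI versus Sham (95% interval -0.46 to -0.079), by 0.35 in IR versus WI (0.15 to 0.54) and by 0.077 in IR versus Sham (-0.13 to 0.28). These shifts are small, at most a fold of 1.14 in the CPM of a seed sum, and without replicate livers they cannot be set against variation between animals.

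**Figure D4:**
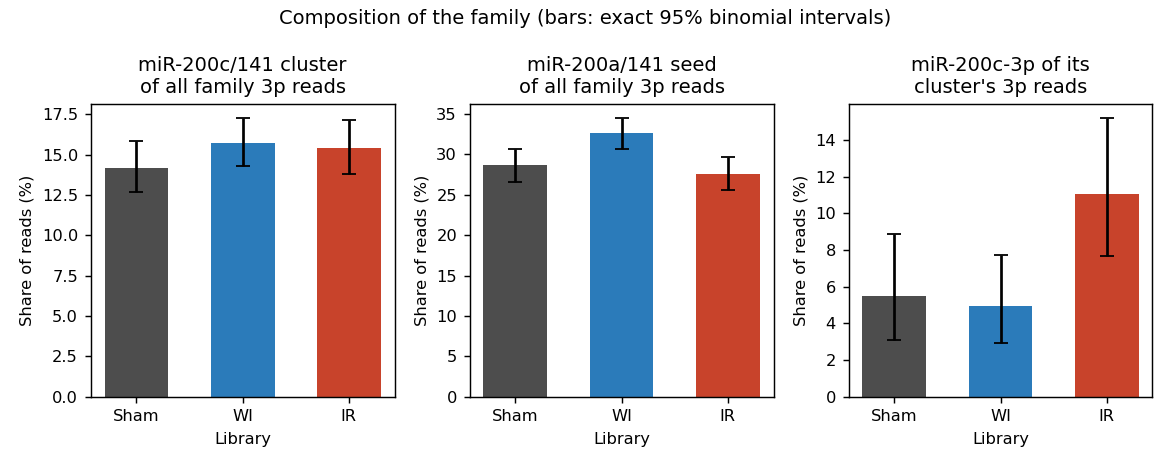
Share of reads (y axis, percent) in the Sham, WI and IR libraries that came from the cluster of miR-200c and miR-141 among all family 3p reads, from the seed of miR-200a and miR-141 among all family 3p reads, and from miR-200c-3p among the 3p reads of its cluster. Bars show the share with exact 95% binomial intervals, and they read 14.2, 15.7 and 15.4%, then 28.7, 32.6 and 27.6%, then 5.49, 4.95 and 11.03%.

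The 5p arms come from the other side of the same hairpins and were not used to choose the members. The hairpins of the chromosome 6 cluster are shown because they give miR-200c-3p, the called member, and its cluster partner, with both mature arms in capitals, 5p first (RefSeq, GRCm38.p6):

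Mir200c: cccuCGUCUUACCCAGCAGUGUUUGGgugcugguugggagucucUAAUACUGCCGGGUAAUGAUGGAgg
Mir141: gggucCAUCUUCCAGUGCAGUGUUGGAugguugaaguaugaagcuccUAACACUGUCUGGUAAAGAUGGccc

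The 5p arms were near the floor. They held 22 reads in Sham, 28 after WI and 18 after IR, which was 1.13% (0.710 to 1.71), 1.20% (0.797 to 1.72) and 0.949% (0.563 to 1.495) of the reads of both arms. MiR-200a-5p had most, with 13, 15 and 11 reads, which were 4.25%, 3.55% and 4.06% of the reads of its hairpin's arms. MiR-200b-5p had 8, 8 and 4 reads, and miR-141-5p had 1, 5 and 3.

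No read of miR-429-5p or miR-200c-5p was counted in any library. For miR-429-5p, 0 of 358, 442 and 345 reads allow a share of up to 0.838%, 0.679% and 0.870% of the hairpin's arms. For miR-200c-5p, with 15, 18 and 32 reads of both arms, the limits were 20%, 16.7% and 9.38%, so arm use could not be judged. None of the 3 detected 5p arms was called in any comparison, and their lowest Fisher's exact p was 0.233.

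Other microRNAs that are typical of epithelia were read beside the family. Of the 7 in the list (miR-183-5p, miR-96-5p, miR-182-5p, miR-375-3p, miR-203-3p, miR-205-5p and miR-31-5p), none was called in WI versus Sham or IR versus Sham by the fold and Fisher criteria, and 1 was called in IR versus WI, lower, beside 1.92%, 7.11% and 9.25% of all tested microRNAs in these comparisons. Genome-aligned totals called 1 of the 7 in WI versus Sham and 2 in IR versus WI. Over all tested microRNAs these totals called 25 of 782 and 111 of 789. A fold above 2 or an assumed coefficient of variation of 0.2 left 0 of the 7 in IR versus WI. Their median log2 fold changes were 0.10, -0.16 and -0.048 in WI versus Sham, IR versus WI and IR versus Sham. The most abundant was miR-182-5p, at 1886 CPM in Sham, 1930 after WI and 2078 after IR. The called one was miR-375-3p, which is known from endocrine and mucosal epithelia. It had 45 reads in Sham, 86 after WI and 36 after IR, and fell from WI to IR by 0.90 on the log2 scale (SE 0.29, Fisher's exact p = 0.00132).

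Several markers of other cell types were also higher in the IR library, and their part in the miR-200c-3p difference was not tested. The erythroid pair, miR-451a and miR-144-3p, summed to 1117 CPM in Sham, 1066 after WI and 1961 after IR, and 2 of 2 were called higher in IR versus Sham, beside 5.68% of all tested microRNAs. This count was 1 of 2 without the 10 most abundant microRNAs and with genome-aligned totals, and 0 at a fold above 2 or an assumed coefficient of variation of 0.2. In IR versus WI, 1 of 2 was called higher, miR-451a, beside 6.21% of all tested microRNAs. MiR-144-3p was not called there (log2 fold change 0.20, SE 0.092). Its log2 fold change in WI versus Sham was 0.42 (SE 0.10), also not called. Of 4 leukocyte microRNAs, miR-223-3p alone was called with TMM, higher in IR versus WI and in IR versus Sham. The shares of all tested microRNAs called higher there were 6.21% and 5.68%. MiR-223-3p had 236 CPM in IR against 110 in Sham and 109 after WI. At an assumed coefficient of variation of 0.4, no leukocyte microRNA was called. The leukocyte list summed to 3074, 3037 and 2792 CPM, with miR-142-5p its most abundant member. In IR versus WI, miR-142-3p, miR-142-5p and miR-150-5p were lower, with log2 fold changes of -0.36, -0.19 and -0.13. In IR versus Sham their log2 fold changes were 0.11, -0.22 and -0.32. The muscle list summed to 6.82, 23.8 and 75.1 CPM, and of its 3 members only miR-133a-3p had more than 6 reads in any library. It alone was called, higher in all 3 comparisons. The shares of all tested microRNAs called higher were 1.41% in WI versus Sham, 6.21% in IR versus WI and 5.68% in IR versus Sham.

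None of the hepatocyte, endothelial and stromal markers was called by the fold and Fisher criteria with TMM. Genome-aligned totals called 1 of each list in IR versus WI, beside 111 of 789 tested microRNAs, 73 of them lower. The median log2 fold change of all tested microRNAs was then -0.33. The hepatocyte arms of miR-122 summed to 17055 CPM in Sham, 20121 after WI and 16431 after IR, with miR-122-5p the more abundant. The endothelial arms of miR-126a summed to 19267, 22783 and 17568 CPM, led by miR-126a-5p, and the 4 stromal microRNAs to 39455, 42874 and 35007 CPM, led by miR-143-3p. Each of these sums was highest in WI, as was the AACACUG seed sum, and each followed its leading member. MiR-122-3p and miR-199a-3p were also highest in WI with TMM, but within counting error of Sham. Their log2 fold changes in WI versus Sham were 0.035 (SE 0.029, Fisher's exact p = 0.238) and 0.023 (SE 0.037, Fisher's exact p = 0.545). The remaining members were not highest in WI. In Sham, WI and IR, miR-126a-3p had 2956, 2951 and 2985 CPM, miR-145a-5p 133, 130 and 126, and miR-214-3p 40.2, 34.7 and 46.5. The level of miR-122-5p ran from 15364 to 18999 CPM, under the 34215 to 42013 CPM of miR-143-3p. No value here assigns the miR-200 reads to bile ducts or to another epithelium. Of the pancreatic pair, miR-216a-5p had no reads and miR-217-5p had 1 read, in WI.

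The microRNAs whose pattern was most like the summed family were found by the Euclidean distance of centred log2 CPM over the 3 libraries, among 312 microRNAs with at least 50 reads. They were miR-30d-5p (distance 0.0011), miR-425-5p (0.018), miR-652-3p (0.019), miR-126a-3p (0.025) and miR-92a-3p (0.028). All 5 varied little, like the family sum. The nearest, miR-30d-5p, stood at 10896 CPM in Sham, 10670 after WI and 11020.5 after IR, beside 486, 475 and 491 for the family. With only 3 libraries, a likeness of this kind describes the levels and nothing more.

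The cluster sums depended on how the libraries were scaled. The log2 fold change of the chromosome 4 sum in WI versus Sham was -0.057 with TMM and 0.099 with genome-aligned totals, which moved the median of all tested microRNAs to 0.20. In IR versus WI the same change of totals took the chromosome 4 sum from 0.053 to -0.27 and the chromosome 6 sum from 0.019 to -0.30, beside a median of all microRNAs of -0.33.

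**Figure D5:**
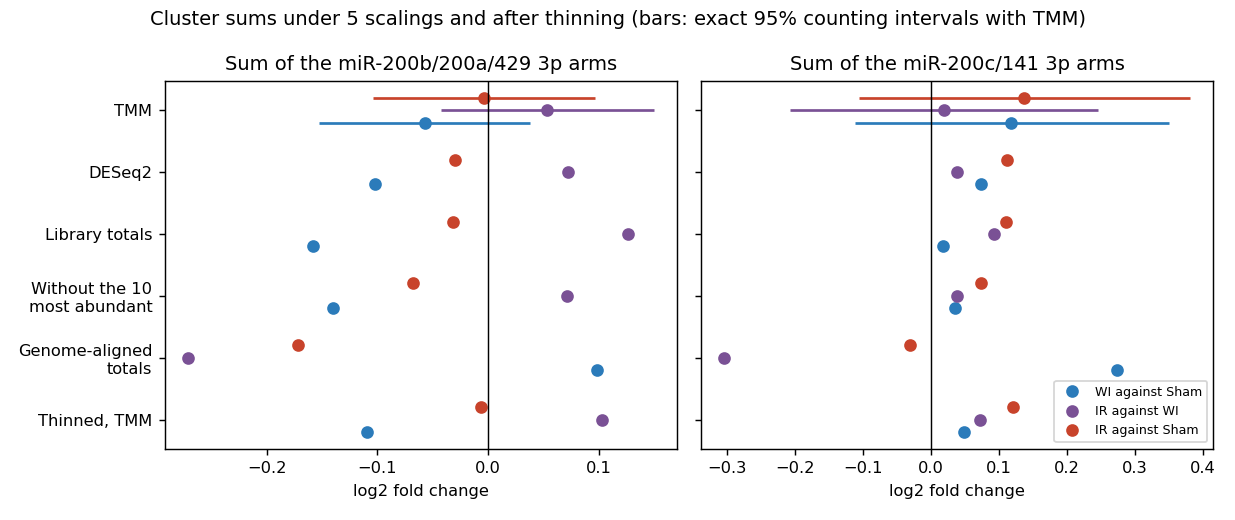
Log2 fold change (x axis) of the summed 3p reads of each cluster in the 3 comparisons under 5 scalings and after thinning to equal depth (y axis). Points are estimates and the bars at TMM are exact 95% counting intervals, and with genome-aligned totals the sums in IR versus WI move to -0.27 and -0.30.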

How the data were processed

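Small RNA from mouse liver was sequenced as 1 library per group (Sham, WI and IR), grouped by sample title. The deposited files give whole read counts for each mature microRNA, with no normalisation. The authors trimmed adaptors, filtered on quality, kept lengths of 15 to 30 nt, and mapped the reads with Bowtie (0.12.7 in the submitters' processing notes), discarding reads with more than 5 genomic positions. They counted mature microRNAs with miRDeep2. The methods of the study name mm9 for small RNA and the submitters' notes name mm10. Positions here are from GENCODE on mm9, and the counts carry none. Without molecular identifiers, PCR copies counted as separate reads.

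TMM factors (1.03, 0.961 and 1.01 for Sham, WI and IR) came from edgeR 4.0.16 in R 4.3.3. Fold changes were taken on log2(CPM + 0.1), which understates changes of low microRNAs. Their SE and intervals came from read counts alone, the intervals from the ratio without pseudocount. Ratios and shares had exact binomial intervals, and changes of log2 ratios had normal-approximation intervals. A two-sided Fisher's exact test (scipy 1.17.1) on TMM-scaled totals was run for every microRNA that had a read in 1 or both of the libraries compared. A quasi-likelihood test needs replicates and could not be fitted. No test was run on sums over members. Among the alternatives were other scalings (size factors of DESeq2 1.42.0, and the total of genome-aligned reads stated by the authors), another pseudocount, other thresholds, equal depth and assumed variation.

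The members and lists were chosen with earlier results of these data known. Named microRNAs were the members, their 5p arms, others sharing a seed, the 5 nearest in pattern, and of each list those called and the most abundant. Other list members were named beside them for comparison. The leukocyte marker miR-142a is listed in the files as miR-142. All members and 5p arms were matched in RefSeq.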

Additional observations from a re-analysis of the deposited data

How the results depend on the processing

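No paired analysis was possible because each group is 1 library, and for the same reason no replicate was left out. Over all alternative settings, fold changes of single members kept both direction and call in 159 cases. A call was lost in 5 and gained in 1, and 15 changed sign, all of them small and uncalled. Only the other scalings and thinning could change a sign. Assumed variation, other thresholds and a minimum of 10 reads left each fold change as it was. For miR-429-3p in WI versus Sham the log2 fold change was -0.037 with DESeq2 size factors, -0.093 with library totals, -0.075 without the 10 most abundant microRNAs and -0.025 after thinning, and in IR versus WI it was 0.0083, 0.063, 0.0081 and 0.012. MiR-200c-3p in WI versus Sham gave 0.12 with genome-aligned totals and 0.25 after thinning. MiR-200b-3p gave -0.13 in IR versus WI with genome-aligned totals. In IR versus Sham, miR-200b-3p and miR-141-3p gave -0.036 and -0.014 without the 10 most abundant and -0.14 and -0.12 with genome-aligned totals. The call of miR-200c-3p in IR versus WI was lost in 5 settings, so that 0 members were called after thinning and in the exact test of edgeR with assumed coefficients of variation of 0.1, 0.2 or 0.4 (p = 0.0175, 0.0612 and 0.242). With genome-aligned totals miR-200c-3p lost its call (0.84) and miR-200a-3p gained one (-0.63), and the number stayed at 1. The cause was not tested. At 15 to 32 reads, depth limits what can be said of miR-200c-3p.

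With genome-aligned totals the family sum had log2 fold changes of 0.12, -0.28 and -0.15 in WI versus Sham, IR versus WI and IR versus Sham. The chromosome 4 cluster had 0.099, -0.27 and -0.17, and the chromosome 6 cluster -0.30 in IR versus WI, beside medians of all microRNAs of 0.20, -0.33 and -0.11. With library totals the family and the chromosome 4 cluster gave -0.13 and -0.16 in WI versus Sham. Without miR-200b-3p they gave 0.097 and 0.088 in WI versus Sham and -0.092 and -0.14 in IR versus WI. Without miR-141-3p the chromosome 6 cluster gave 1.16 in IR versus WI and 1.12 in IR versus Sham, and the log2 cluster ratio changed by -1.12 and -1.15. With members weighted equally the cluster ratio changed by -0.58 and -0.62, and the ratio of AAUACUG to AACACUG by 0.63 and 0.42. Leaving out a member changes shares by construction. The share of the chromosome 6 cluster in Sham, WI and IR was then 29.5, 29.98 and 32.4% without miR-200b-3p, 16.7, 19.1 and 17.9% without miR-200a-3p, 17.4, 19.5 and 18.9% without miR-429-3p, and 0.901, 0.916 and 1.97% without miR-141-3p. The share of the AACACUG seed was 59.6, 62.1 and 57.9%, 15.8, 18.2 and 15.9%, 35.2, 40.3 and 33.8%, and 17.6, 20.8 and 16.0% without the same members in turn. It was highest in WI in each case.

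Over all microRNAs, TMM gave 15 calls in WI versus Sham (11 higher, 4 lower), 73 in IR versus WI (49 and 24) and 55 in IR versus Sham (44 and 11). With the same stated criteria, the study reported more microRNAs in WI versus Sham and in IR versus Sham. The source of that difference was not tested. Genome-aligned totals gave 25 (23 and 2), 111 (38 and 73) and 63 (35 and 28). In WI versus Sham, library totals gave 7 higher and 10 lower, leaving out the 10 most abundant 8 and 9, DESeq2 10 and 6, and thinning 9 and 7. A coefficient of variation of 0.2 left 4, 33 and 24 calls, one of 0.4 left 1, 6 and 10, and a fold above 2 left 9, 49 and 35. A minimum of 200 reads could not change the 5 nearest patterns, since each of them had more reads than that in every library.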
